A study of Mus musculus with 18 samples.

Results

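10 genes that mark the cells lining the brain ventricles were followed on every array of a study of midbrain dopamine neurons: Ttr, Folr1, Kcnj13, Clic6, Kl and Enpp2, which are associated with the choroid plexus, and Capsl, Foxj1, Tmem212 and Ccdc153, which are associated with ciliated ependyma. Members were the probe sets whose only gene symbol in the platform annotation was one of these 10. This gave 14 probe sets of 9 genes, out of 34945 probe sets of 18193 genes. Enpp2 was not analysed here. The 9 genes consisted of 5 of the choroid plexus and 4 of ependyma. The 10 genes were chosen with results of these data known. Capsl was taken from the comparison of VTA after 2 days of MPTP with its controls, and the other genes, Ttr above all, from the comparison of SN after 10 days with its controls and from single arrays with high values. Both comparisons are therefore described with no test. A test is given only for a gene whose choosing comparison held neither of the groups compared. This leaves Capsl after 2 days in SN and the other 8 genes after 10 days in VTA. The single arrays may include VTA control array 1, where Ttr was at 5.14. The test of these 8 genes is then not fully separate from their choice. That of Capsl may not be either, since the labels do not say whether SN and VTA arrays share mice.

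Neurons of 2 dopamine cell groups, the substantia nigra (SN) and the neighbouring ventral tegmental area (VTA), were collected by laser capture. The mice were adult C57Bl/6 animals, and all carried the hTH-GFP transgene, in which sequences of the human tyrosine hydroxylase gene drive a green fluorescent protein. Treated mice were given MPTP, which the brain converts to a toxin of dopamine neurons, at 4 mg/kg over either 2 or 10 days. Control mice had saline over 10 days, and all brains were taken 7 days after injections ended. The 2 day groups thus had no controls of the same injection length, so each 2 day difference from controls also holds that difference in length. Each of the 6 groups (SN control, SN 2 days, SN 10 days, VTA control, VTA 2 days, VTA 10 days) had 3 arrays, 18 in all. The controls are labelled untreated on each sample, although the protocol gives them saline. The labels name the replicates biological but neither tie arrays to mice nor say how neurons were recognised for capture, so p-values measure the spread between these arrays. All values are log2 signals relative to the median of the same probe set over the 18 arrays, so 0 is that median, no absolute level is known, and neither the presence of a gene nor the labelled cell type could be checked by level. The mean of 15 dopamine neuron genes per array lay between 0.37 and 1.00 in SN controls, -0.49 and -0.13 in SN after 2 days, -0.17 and 0.31 in SN after 10 days, -0.57 and 0.73 in VTA controls, -0.67 and 0.15 in VTA after 2 days, and -0.33 and 0.58 in VTA after 10 days. Th, the tyrosine hydroxylase gene, was at 1.45, 0.59 and 0.57 in SN controls and at -0.90, 1.01 and 1.15 in VTA controls, so VTA control array 1, which had high Ttr, was also low in Th. Slc6a3, the dopamine transporter gene, was at -0.98 on that array and at 0.59 and 0.50 on the other VTA control arrays. Ttr was also above 5 on arrays 2 and 3 of SN after 10 days and array 3 of VTA after 2 days. On these, Th was at -0.55, 0.71 and -0.77 and Slc6a3 at -0.13, 0.36 and -0.30, in that order. Array 3 of SN after 10 days, with the highest Ttr, was thus not low in either gene. The array with the widest spread of signals was array 1 of VTA after 2 days, with a median absolute deviation of 0.278 where the others lay between 0.121 and 0.242.

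The choroid plexus is an epithelium inside the ventricles that secretes cerebrospinal fluid, and it makes transthyretin, a carrier of thyroid hormone, in great abundance. Ependymal cells line the ventricle walls and beat motile cilia that move the fluid. FOXJ1 is the transcription factor that switches on motile cilia genes, and it acts beside RFX factors, which bind a sequence called the X-box in promoters of ciliary genes. Both tissues lie outside the dopamine cell groups, although the ventral midbrain lies close to the meninges and the aqueduct, which ependyma lines, runs above it.

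Ttr, the transthyretin gene, varied more over the 18 arrays than any other of the 18193 genes, with an SD of 3.11 on the log2 scale. In SN controls it was at -0.93, -0.25 and -2.72 on arrays 1, 2 and 3. In SN after 2 days it was at 2.72, -2.28 and 2.34, and in SN after 10 days at -0.85, 5.13 and 6.09. The SN 10 day group thus held a pair of very high arrays and 1 array within the range of its controls. In VTA controls Ttr was at 5.14, -2.65 and -2.62, in VTA after 2 days at -2.87, -1.66 and 5.33, and in VTA after 10 days at 0.25, 0.90 and 1.47. Ttr was above 5 on 4 arrays, which came from 3 groups and from both regions, 1 of them a control. The lowest of these 4 exceeded the next array by 2.41, or 5.32-fold. The range from lowest to highest was 8.96, or 498-fold. All 6 groups overlapped their neighbours in the order of the group means, which ran from -1.30 ± 1.27 (SD, n = 3) in SN controls to 3.46 ± 3.76 in SN after 10 days.

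The 4 probe sets of Ttr followed one another closely. Their pairwise Pearson correlations over the 18 arrays were between 0.925 and 0.996, given as a description. All 4 had their highest value on array 3 of SN after 10 days, from 5.61 to 6.72. The lowest values differed more between probe sets, from -1.17 to -4.20.

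**Figure D1:**
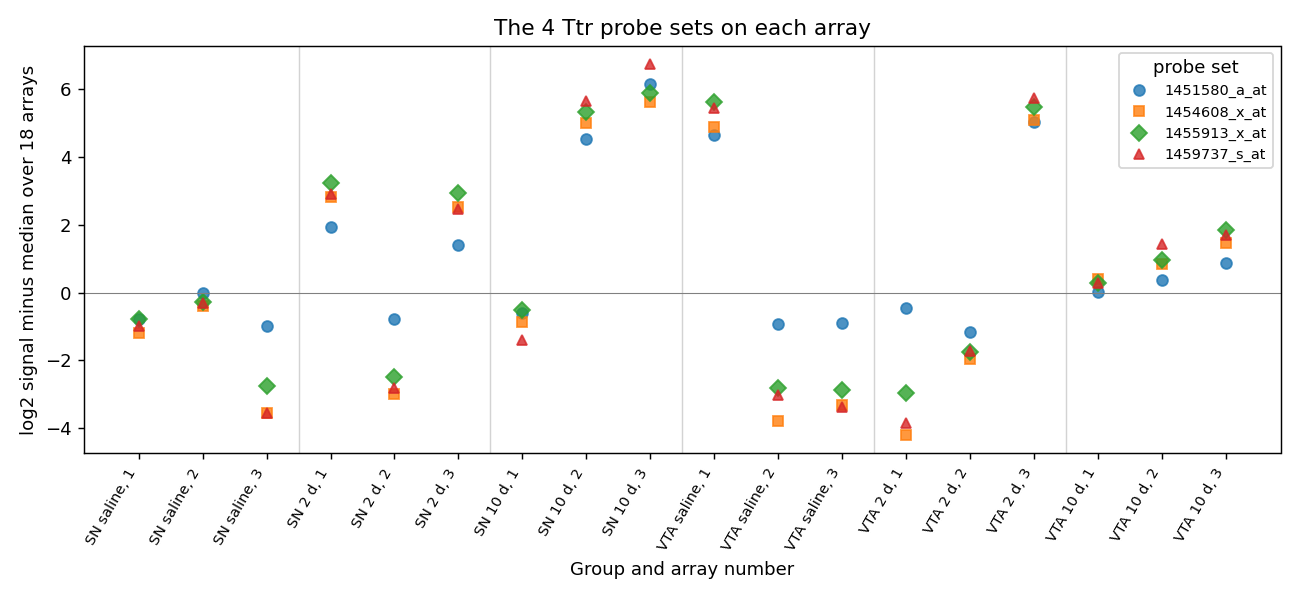
Log2 signal of the 4 Ttr probe sets on each of the 18 arrays (x axis: group and array number; y axis: log2 signal minus the probe set's median over the 18 arrays; 1 symbol per probe set; d, days of MPTP). On 4 arrays (SN 10 days arrays 2 and 3, VTA control array 1 and VTA 2 days array 3) the mean of the probe sets lies above 5.

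Kcnj13, Folr1, Clic6 and Kl, the other choroid plexus members, were not all high wherever Ttr was high. The array with the most Ttr, array 3 of SN after 10 days, was also the highest for Kcnj13, Folr1 and Clic6. Kcnj13 encodes an inwardly rectifying potassium channel of the choroid plexus epithelium. It was at 0.96, 0.84 and -1.42 in SN controls, 0.04, -0.13 and -0.47 in SN after 2 days, and -0.39, -0.04 and 1.96 in SN after 10 days. In VTA it was at 0.64, 0.75 and -1.09 in controls, -1.13, -0.13 and 0.54 after 2 days, and 0.10, -0.31 and 0.20 after 10 days. Its highest value was that of array 3 of SN after 10 days, and its next 3 values, 0.96, 0.84 and 0.75, came from control arrays on which Ttr was below its median.

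Folr1, which encodes a folate receptor that carries folate across the choroid plexus, had the narrowest range of the 9 genes, 1.12. It was at -0.08, -0.04 and 0.03 in SN controls, 0.14, -0.13 and 0.13 in SN after 2 days, and 0.03, -0.13 and 0.86 in SN after 10 days. VTA values were 0.30, 0.05 and -0.03 in controls, 0.46, -0.20 and 0.44 after 2 days, and -0.26, -0.20 and -0.08 after 10 days. Its SD over the 18 arrays was above that of 64.8% of genes, where those of the other 8 members were above 87.7% or more. The values after 10 days in VTA lay just below those of the VTA controls without overlap.

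Clic6, a chloride intracellular channel family gene, was at -0.34, -0.48 and 0.19 in SN controls, -0.40, -0.55 and 0.02 in SN after 2 days, and 0.52, -0.35 and 1.79 in SN after 10 days. Its VTA values were 0.58, -0.44 and -0.06 in controls, 1.68, -0.38 and 0.30 after 2 days, and 0.63, -0.21 and 0.46 after 10 days. Array 2 was its lowest array in each of the 6 groups, and replicate numbers are not known to link groups. Its 2 probe sets correlated at 0.794.

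Kl encodes klotho, a co-receptor for fibroblast growth factor 23 made in kidney and choroid plexus. It was at 0.94, 0.19 and -0.62 in SN controls, 0.08, -0.26 and -0.38 in SN after 2 days, and 0.02, 0.32 and 1.06 in SN after 10 days. On the VTA arrays it reached -0.50, 0.30 and -0.59 in controls, 1.29, -0.28 and 0.03 after 2 days, and 0.11, -0.13 and 0.16 after 10 days. Its 2 probe sets correlated at only 0.148, with ranges from -1.15 to 2.39 and from -0.55 to 0.84, so the mean of Kl rests mostly on the first.

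Array 3 of SN after 10 days held the most choroid plexus genes above their median. On it, 4 of the 5 choroid plexus members were more than 1 above their median (2-fold), against 1.20% of all genes on that array, and Folr1 was at 0.86. Of 29 other choroid plexus genes, 10 were above 1 there. The widest-ranging of these were Calml4, a calmodulin-like gene, at 2.61, Ecrg4, which encodes a secreted peptide of the choroid plexus, at 2.32, Sostdc1, an inhibitor of BMP and Wnt signalling, at 2.23, and Slc13a4, a sulfate transporter gene also active in meninges, at 1.93. Kcne2, a potassium channel subunit of the choroid plexus, was at 2.48 (a gene singled out with its values in view). Meningeal and fibroblast genes were high on the same array, 9 of 12 above 1, with Aldh1a2, a retinoic acid synthesis enzyme, at 2.00, Ogn, a matrix proteoglycan, at 1.87, Igf2 at 1.76 and Islr at 1.41. The part of meningeal material in these values was not tested.

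The other 3 arrays with Ttr above 5 held fewer of these genes above 1. On array 2 of SN after 10 days, Ttr was the only choroid plexus member above 1, and 0 of the 29 other choroid plexus genes and 0 of the 12 meningeal genes were above 1, where 0.198% of all genes were. On array 3 of VTA after 2 days 1 of 29 was above 1, Calml4 at 2.10, where 0.258% of all genes were. On VTA control array 1 it was 3 of 29, where 0.901% of all genes were. These were Kcne2 at 1.01, Cldn2 at 1.06 and Steap1 at 1.03, all 3 singled out with their values in view. In the opposite way, meningeal genes were above 1 on SN control array 1 (9 of 12), SN control array 2 (7), VTA control array 2 (6) and array 3 of VTA after 10 days (4). Of all genes 1.89%, 0.984%, 0.956% and 0.616% were above 1 on them. Ttr was there at -0.93, -0.25, -2.65 and 1.47. On these arrays Kcnj13 was at 0.96, 0.84, 0.75 and 0.20, and Slc13a4 at 1.57, 1.48, 1.26 and 1.34.

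**Figure D2:**
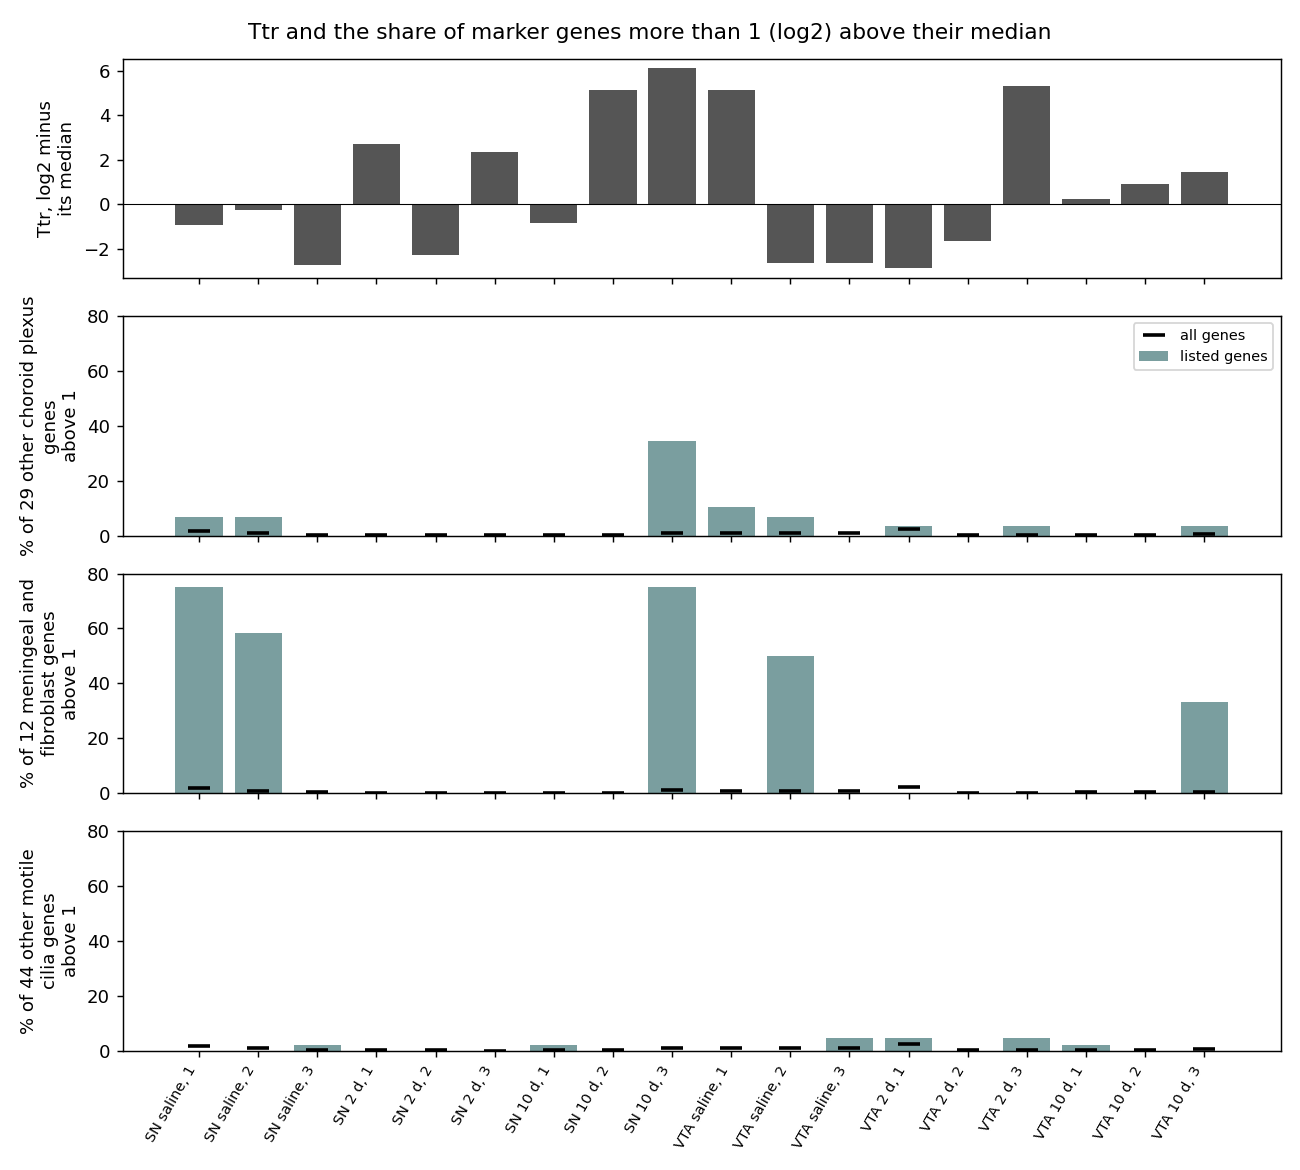
Top: Ttr on each array (y axis: log2 signal minus its median). Lower panels: percent of 29 other choroid plexus genes, 12 meningeal and fibroblast genes and 44 other motile cilia genes more than 1 (log2) above their own median on that array (bars), with the same percent over all genes (black dashes). Array 3 of SN after 10 days is the 1 array that has high Ttr together with many choroid plexus and meningeal genes (10 of 29 and 9 of 12).

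The group ranges put these counts in context. The mean of the 29 other choroid plexus genes per array lay between -0.08 and 0.90 in SN after 10 days, and between -0.07 and 0.14 in SN controls, -0.17 and -0.06 in SN after 2 days, -0.02 and 0.27 in VTA controls, -0.21 and 0.18 in VTA after 2 days, and -0.08 and 0.19 in VTA after 10 days. The mean of the 12 meningeal genes lay between -0.20 and 1.34 in SN after 10 days, -0.61 and 1.03 in SN controls, -0.27 and 0.26 in SN after 2 days, -0.49 and 1.03 in VTA controls, -1.16 and -0.08 in VTA after 2 days, and -0.26 and 0.69 in VTA after 10 days.

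Among the ependymal genes, Capsl and Ccdc153 followed the groups more closely than Ttr did. Capsl was chosen on a difference between groups, and Ttr in part for single high arrays, so nothing is read from this contrast. Capsl encodes a protein related to calcyphosine, a calcium-binding protein, and is transcribed in ciliated cells. It was at -0.15, -0.34 and -0.22 in SN controls, -0.15, 0.85 and 1.47 in SN after 2 days, and 0.18, 0.58 and 0.72 in SN after 10 days. For VTA the values were -2.08, -1.48 and -0.73 in controls, 0.62, 0.96 and 1.56 after 2 days, and 0.15, -0.37 and -0.35 after 10 days. The VTA controls were the lowest group and VTA after 2 days the highest. These groups, on which Capsl was chosen, did not overlap. In the order of group means, VTA controls (-1.43 ± 0.67, SD, n = 3) did not overlap SN controls (-0.24 ± 0.09), SN controls overlapped VTA after 10 days (-0.19 ± 0.29), the latter did not overlap SN after 10 days (0.50 ± 0.28), and SN after 10 days, SN after 2 days (0.73 ± 0.82) and VTA after 2 days (1.05 ± 0.47) overlapped in turn.

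Ccdc153, a coiled-coil gene used as a marker of ependymal cells, shared its 2 lowest groups with Capsl, VTA controls and then SN controls. It was at -0.86, -0.94 and -0.20 in SN controls, 0.65, 0.29 and 0.07 in SN after 2 days, and 1.14, 0.99 and -1.23 in SN after 10 days. In VTA it was at -2.08, -1.13 and -1.91 in controls, 0.08, -0.07 and 0.58 after 2 days, and -0.38, 0.12 and 1.03 after 10 days. VTA controls (-1.71 ± 0.51) did not overlap SN controls (-0.66 ± 0.41), which did not overlap VTA after 2 days (0.20 ± 0.34). The 4 treated groups overlapped in turn, and VTA after 2 days, the highest group for Capsl, had the lowest mean of these 4 for Ccdc153. Its lowest SN value lay on array 3 of SN after 10 days, the array with the highest Ttr.

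Foxj1 and Tmem212 had narrower ranges, 1.92 and 1.36. Foxj1 was at -0.02, 0.19 and -0.23 in SN controls, 0.71, -0.48 and -0.46 in SN after 2 days, and 0.27, -0.70 and 0.02 in SN after 10 days. VTA values were 0.10, 0.09 and 0.11 in controls, 1.22, -0.35 and -0.32 after 2 days, and -0.10, -0.49 and 0.48 after 10 days. Its highest value fell on the array of widest spread. Tmem212, a transmembrane protein gene of ciliated ependyma, was at -0.03, 0.20 and -0.03 in SN controls, 0.96, -0.02 and -0.26 in SN after 2 days, and 0.32, 0.12 and -0.30 in SN after 10 days. Its VTA values were -0.24, -0.01 and -0.32 in controls, 0.01, 0.16 and 1.04 after 2 days, and -0.16, 0.76 and 0.57 after 10 days. VTA controls were also the lowest group of Tmem212, at -0.19 ± 0.16 (SD, n = 3), with all 3 arrays below 0. All neighbours in the order of group means overlapped for both genes.

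**Figure D3:**
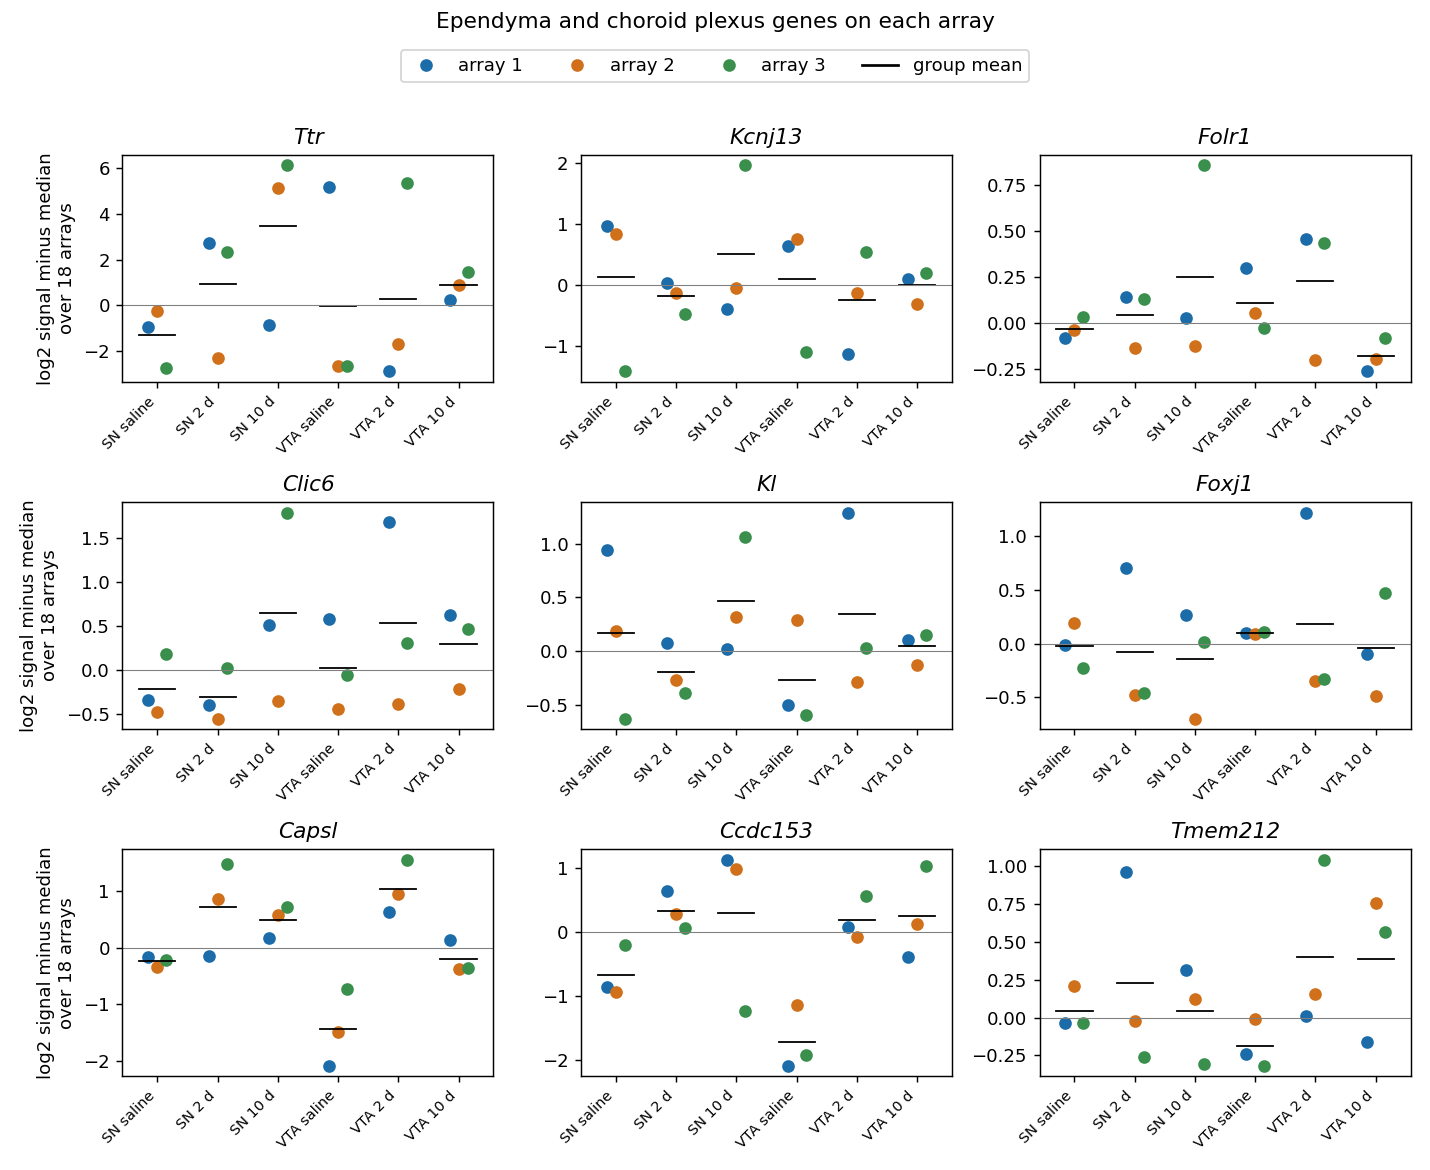
The 9 measured genes in the 6 groups (x axis: region and days of MPTP, with saline controls; y axis: log2 signal minus the median over 18 arrays, scaled per gene; points: single arrays coloured by array number; black lines: group means of 3 arrays). Ttr is above 5 on 4 arrays of 3 groups, and all 3 VTA control arrays are below 0 for Capsl, Ccdc153 and Tmem212.

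Promoters are shown for Capsl, Ccdc153 and Tmem212, the 3 ependymal genes matched in the promoter table used here. All 3 had their lowest mean in VTA controls, and so did Kl, a choroid plexus gene also matched in that table. The windows run from 250 bases before to 50 after the annotated start, 5′ to 3′, from RefSeq on GRCm38.p6, and 5 of the 10 members were matched in that table. Capitals mark the partial X-box sequences GTTGCC and GTTACC and the forkhead sequences GTAAACA and ATAAACA, each searched on both strands, and no matches overlapped.
Capsl (chr15:9435778-9436077, + strand): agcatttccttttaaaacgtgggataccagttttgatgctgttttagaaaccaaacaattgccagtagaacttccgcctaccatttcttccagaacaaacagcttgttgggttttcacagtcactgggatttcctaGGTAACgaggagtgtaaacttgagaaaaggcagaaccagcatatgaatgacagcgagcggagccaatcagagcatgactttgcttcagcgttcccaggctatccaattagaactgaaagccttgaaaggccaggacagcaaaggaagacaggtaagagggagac
Ccdc153 (chr9:44240427-44240726, + strand): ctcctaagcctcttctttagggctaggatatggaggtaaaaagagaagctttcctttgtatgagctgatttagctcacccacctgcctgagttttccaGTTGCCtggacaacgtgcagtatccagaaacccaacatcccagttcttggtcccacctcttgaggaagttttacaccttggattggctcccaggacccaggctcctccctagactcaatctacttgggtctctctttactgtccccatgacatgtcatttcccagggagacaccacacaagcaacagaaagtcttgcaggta
Tmem212 (chr3:27896319-27896618, - strand): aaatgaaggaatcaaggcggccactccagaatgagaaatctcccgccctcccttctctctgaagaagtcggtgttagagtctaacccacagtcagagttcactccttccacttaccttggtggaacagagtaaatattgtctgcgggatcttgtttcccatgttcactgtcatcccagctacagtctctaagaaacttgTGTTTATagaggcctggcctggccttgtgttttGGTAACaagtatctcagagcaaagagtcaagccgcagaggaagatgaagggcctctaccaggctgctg

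A partial X-box (GTTGCC or GTTACC) was present in all 3 windows. It was GTTACC on the opposite strand in Capsl, starting 114 bases before the start, GTTGCC in Ccdc153, 152 bases before it, and GTTACC on the opposite strand in Tmem212, 18 bases before it. Of 32851 promoter windows of the same length, 18.6% held either form. Tmem212 also held ATAAACA on the opposite strand, 51 bases before the start, and so did the choroid plexus gene Kcnj13 on the given strand, 28 bases before its start, where 7.97% of windows held either forkhead form. The window of Kl, whose mean was also lowest in VTA controls (-0.26), held none of the 4 sequences. Such a match is a description of these letters and not a binding site.

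After 10 days of MPTP in SN, the comparison on which the list was chosen, 7 of 9 members were higher than in SN controls and their median difference was 0.38, where 46.6% of all genes were higher and the median of all genes was -0.017. Ttr was 4.76 ± 2.30 (SE, 3 arrays per group) higher, and without array 3 of the 10 day group 3.44. The difference was 0.86 ± 0.50 for Clic6 (0.29 without that array), 0.38 ± 0.67 for Kcnj13 (-0.39 without SN control array 3), 0.29 ± 0.41 for Kl (-0.10 without SN control array 3) and 0.28 ± 0.22 for Folr1 (-0.019 without array 3 of the 10 day group). Among ependymal genes it was 0.73 ± 0.37 for Capsl, 0.96 ± 0.50 for Ccdc153 (1.73 without array 3 of the 10 day group and 0.55 without array 1), -0.12 ± 0.40 for Foxj1 (0.16 without array 2 of the 10 day group) and -0.001 ± 0.32 for Tmem212 (0.17 without array 3 of that group and -0.14 without array 1). Capsl was the 1 member of 9 whose arrays lay higher without overlap, where 5% of all genes did.

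After 2 days in VTA, the comparison on which Capsl was chosen, Capsl was 2.48 ± 0.37 (SE, 3 arrays per group), or 5.57-fold, higher than in VTA controls, and between 2.15 and 2.83 higher with 1 array left out. Ccdc153 was 1.90 ± 0.50 higher, and between 1.71 and 2.19 with 1 array left out, and Tmem212 0.59 ± 0.32 (0.27 without array 3 of the 2 day group). These 3 ependymal genes lay without overlap above their controls, where 5.1% of all genes did, and nothing is read from that count. For Tmem212 the gap was only between 0.0097 and -0.0097. The difference was 0.083 ± 0.40 for Foxj1 (-0.44 without array 1 of the 2 day group), 0.61 ± 0.41 for Kl (0.14 without that array), 0.51 ± 0.50 for Clic6 (-0.067 without it), 0.12 ± 0.22 for Folr1 (0.009 without it) and -0.34 ± 0.67 for Kcnj13 (0.10 without it). For Ttr it was 0.31 ± 2.30, with -2.22 without array 3 of the 2 day group and 2.90 without VTA control array 1.

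**Figure D4:**
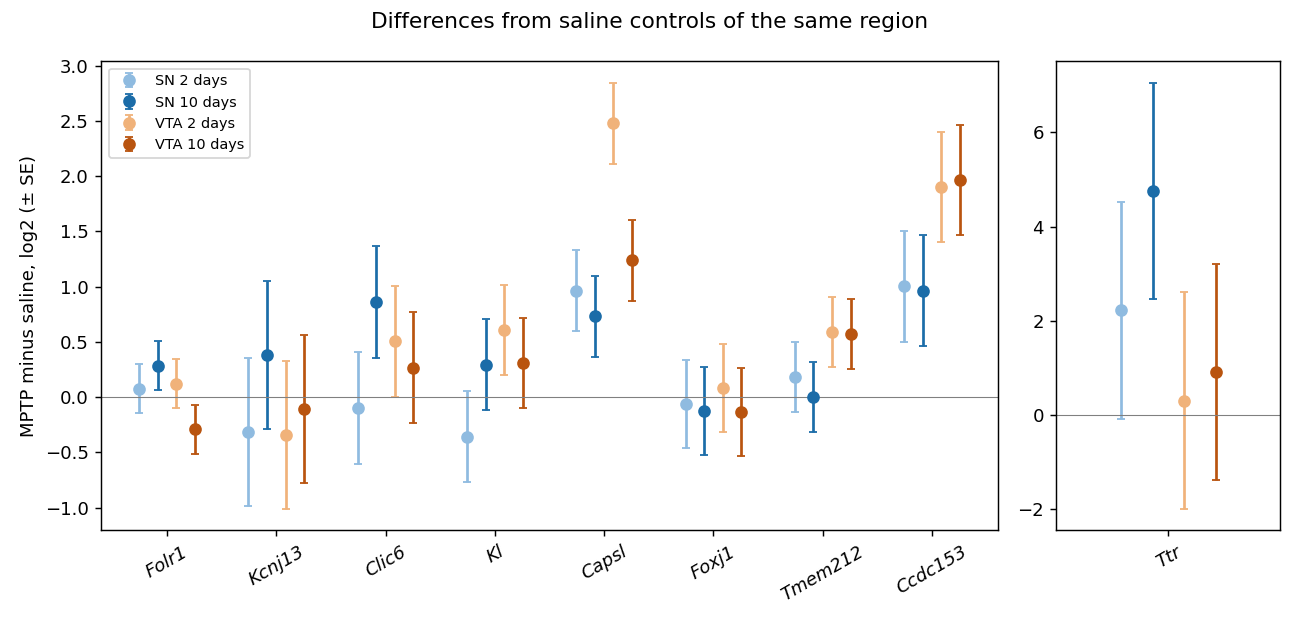
Difference of each measured gene between MPTP and saline controls of the same region (y axis: log2 difference; points: model estimates from 3 arrays per group; bars: ± 1 SE; Ttr on an axis of its own). Capsl, Ccdc153 and Ttr lie above 0 in all 4 comparisons, of which those within a region share their control arrays. The SE of Ttr is 2.30 in each.

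After 2 days in SN, Capsl was 0.96 ± 0.37 (SE, 3 arrays per group) higher than SN controls, which did not pass (limma, adjusted p = 0.68), and 0% of all genes passed. Its unadjusted p in limma was 0.0183, where 6.65% of all genes were under 0.05. After 2 days, deviations of same-numbered SN and VTA arrays correlated between 0.050 and 0.231. The test may therefore not be fully separate from the choice of Capsl in VTA. Its arrays lay above the controls without overlap, where 5.96% of genes did, but the gap was between -0.146 and -0.154, and leaving out array 3 of the 2 day group gave 0.59. The other 8 genes are described with no test, since the SN controls were among the arrays on which they were chosen. Ccdc153 was 1.00 ± 0.50 higher, also without overlap. Ttr was 2.23 ± 2.30 higher (1.33 without array 1 of the 2 day group and 3.83 without array 2). The differences of Folr1, Kcnj13, Clic6, Kl, Foxj1 and Tmem212 ran from -0.36 ± 0.41 for Kl to 0.18 ± 0.32 for Tmem212, and 1 array decided the sign of all but Folr1. Without SN control array 3 or SN control array 1 in turn, Kl was at -0.75 or 0.03 and Kcnj13 at -1.09 or 0.10. Without array 1 of the 2 day group Tmem212 was at -0.19 and Foxj1 at -0.45, whereas Tmem212 was at 0.42 without array 3 and Foxj1 at 0.14 without array 2 of that group. Clic6 was at -0.26 without array 3 of the 2 day group and at 0.10 without SN control array 3, and Folr1, at 0.075 with all arrays, was at 0.027 without array 1 and at 0.16 without array 2 of the 2 day group.

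After 10 days in VTA, 0 of the 8 genes other than Capsl passed (limma, smallest adjusted p = 0.441, for Ccdc153), where 0.011% of all genes did. At an unadjusted p under 0.05 it was 1 of 8, Ccdc153, where 5.41% of all genes were. VTA control array 1, which may be among the single arrays used in choosing, enters this test. Ccdc153 was 1.96 ± 0.50 (SE) higher than VTA controls, between 1.58 and 2.28 with 1 array left out. It was the 1 gene of the 8 that was higher without overlap, where 4.77% of genes were. Folr1 was at -0.29 ± 0.22, the 1 gene lower without overlap, where 4.53% of genes were. Tmem212 was 0.58 ± 0.32 higher, and Ttr 0.91 ± 2.30 (3.51 without VTA control array 1 and -0.39 without VTA control array 2). Capsl was 1.24 ± 0.37 higher, and 0.92 without VTA control array 1, given with no test because the VTA controls are the arrays on which it was chosen.

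The control regions are compared as a description, since both sets of controls had served to choose genes. Capsl was at -1.20 ± 0.37 (SE) in VTA minus SN (-0.87 without VTA control array 1) and Ccdc153 at -1.04 ± 0.50, 2.29-fold and 2.06-fold lower in VTA. Both were lower without overlap, where 3.84% of genes were. Ttr was at 1.26 ± 2.30, and at -1.33 without VTA control array 1. The same VTA control arrays enter both MPTP comparisons in VTA, so the low control values of Capsl and Ccdc153 are part of each difference given above.

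VTA minus SN after 2 days was 0.32 ± 0.37 for Capsl and -0.14 ± 0.50 for Ccdc153, and after 10 days -0.69 ± 0.37 and -0.042 ± 0.50. SN and VTA arrays of the same number deviated together after 10 days. In a model that paired such arrays within controls and each treatment, the differences after 10 days were the same, with SEs of 0.27 and 0.58. The difference between the VTA and SN responses after 2 days was 1.51 ± 0.52 for Capsl, given with no test since it holds the comparison on which Capsl was chosen.

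**Figure D5:**
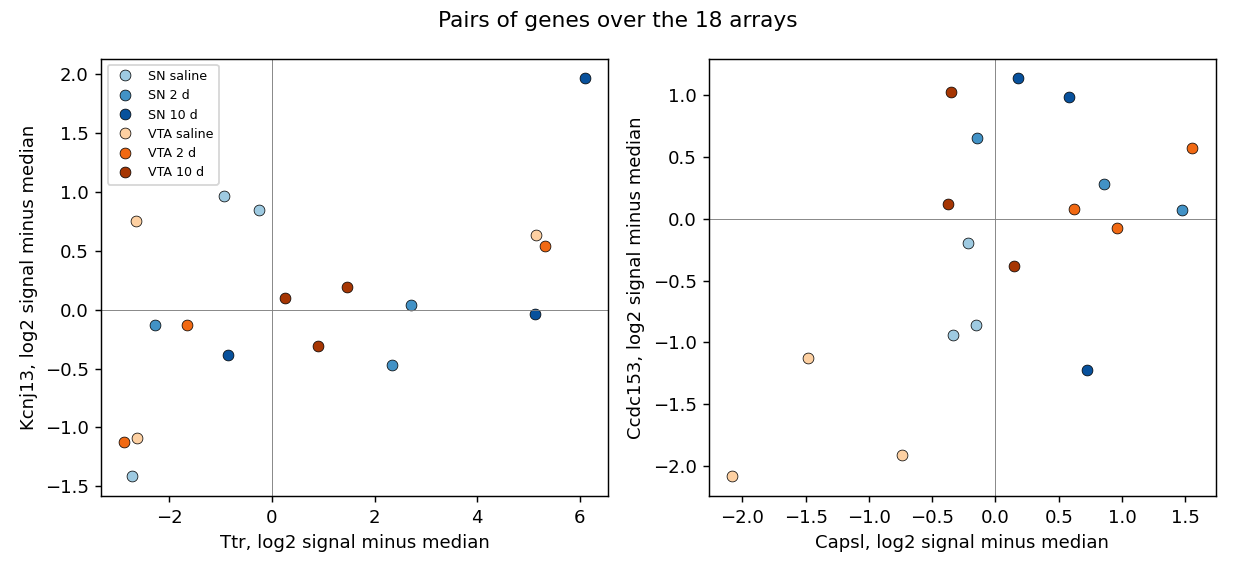
Left: Kcnj13 against Ttr. Right: Ccdc153 against Capsl. Each point is 1 of 18 arrays, coloured by group, and both axes are log2 signal minus the gene's median. The highest Ttr and Kcnj13 values fall on the same array, and the 3 VTA control arrays lie at the lower left of the right panel.

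Likeness of pattern over the 18 arrays was measured with Pearson's r, as a description with no p, since arrays share a platform and preparation and the genes were chosen on them. Of the members, Kcnj13 was most like Ttr, with r of 0.546 (Spearman's rho 0.490) and 0.350 without the 2 arrays farthest from the median of Ttr, and 0.957% of genes were more like it. Folr1 had an r of 0.474, which was 0.061 without those 2 arrays, and Clic6 one of 0.249, which was then -0.057. Kl (0.098), Capsl (0.152), Foxj1 (-0.226), Tmem212 (0.228) and Ccdc153 (0.077) were not close to Ttr. Of the 8 genes most like Ttr among all genes, Hnrnpul1 (0.791), Sap30l (0.756), Tab2 (0.739), Zfp938 (0.700), Sostdc1 (0.697), Kiss1r (0.697), Myo10 (0.686) and Sntg2 (0.684), 1 was on the choroid plexus list, Sostdc1. Its r was 0.595 without the 2 arrays. The 29 other choroid plexus genes ran from -0.383 for Slc16a8 to this highest r of Sostdc1. Next below Sostdc1 were Calml4 at 0.669 and Slc4a5 at 0.610, with 0.0825% and 0.341% of genes more like Ttr. Without the 2 arrays these were at 0.402 and 0.414. Next above Slc16a8 was Slc26a11 at -0.215. These genes are named for their place in the order of r.

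Ccdc153 was the member most like Capsl, with r of 0.564, and 1.78% of genes were more like it. Without the 2 arrays farthest from the median of Capsl, VTA control array 1 and array 3 of VTA after 2 days, it was 0.356. Foxj1 was at -0.270 and Tmem212 at 0.170. The 8 genes most like Capsl among all genes were Lrrc57 (0.811), the translation termination factor gene Gspt1 (0.805), the mitochondrial ribosomal gene Mrpl3 (0.796), Cibar1, which encodes a ciliary protein (0.790), Tesc (0.788), Cracdl (0.788), Ak5 (0.784) and Cabp4 (0.784). None of these 8 was on the motile cilia list.

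The 44 other genes of motile cilia, among them dynein arms, radial spokes and tektins, lay above 0 more often than all genes after MPTP, by small differences. After 2 days in SN 31 of 44 were above 0 with a median of 0.11, after 10 days in SN 32 with a median of 0.20, after 2 days in VTA 27 with 0.10, and after 10 days in VTA 30 with 0.11, where 44.7%, 46.6%, 48.4% and 49.1% of all genes were above 0. After 2 days in SN and 10 days in VTA, 0 passed (limma), and 4 and 2 were higher and 0 lower at an unadjusted p under 0.05. Of all genes 6.65% and 5.41% were under 0.05 in either direction. Without overlap, 5, 6, 4 and 2 of 44 were higher, where 5.96%, 5%, 5.1% and 4.77% of all genes were. Between control regions 29 of 44 were higher in VTA with a median of 0.041, where 50% of all genes were. The widest-ranging were Ak7, an adenylate kinase of cilia, from -1.89 to 2.04 with its highest value on VTA control array 3, Stk33, from -1.07 to 1.75, the dynein light chain gene Dynlrb2, from -1.36 to 1.41, and Ccdc113, from -1.97 to 0.61. Over the 18 arrays 26 of the 44 had an r above 0 with Capsl, with a median of 0.074, and they ran from -0.423 for Spag17 to 0.629 for Rfx3, which encodes an X-box binding factor. These 2 genes are named for having the lowest and highest r. Rfx3 differed from controls by 0.84 ± 0.20 (SE) after 2 days in SN, 0.43 ± 0.20 after 10 days in SN, 0.65 ± 0.20 after 2 days in VTA and 0.075 ± 0.20 after 10 days in VTA, given with no test. Since Rfx3 was picked from the 44 for its r with Capsl on these same arrays, nothing is read from its differences.

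The 29 other choroid plexus genes did not move one way. They were above 0 for 17 of 29 after 10 days in SN with a median of 0.10, and for 11 after 2 days in SN (-0.16). In VTA it was 9 after 2 days (-0.15) and 7 after 10 days (-0.098). Of all genes 46.6%, 44.7%, 48.4% and 49.1% were above 0, in the same order. After 2 days in SN or 10 days in VTA 0 passed (limma), with 3 and 1 lower at an unadjusted p under 0.05, and 0 higher. Of all genes 6.65% and 5.41% were under 0.05 in either direction.

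Markers of other cells are given for each comparison with controls. Of all genes, 46.6% were higher after 10 days in SN, 48.4% after 2 days in VTA and 44.7% after 2 days in SN. The share was 49.1% after 10 days in VTA and 50% in VTA controls against SN controls. After 10 days in SN the median difference was 0.15 for 12 astrocyte genes (10 higher), -0.20 for 11 oligodendrocyte genes (1 higher), 0.11 for 11 endothelial and pericyte genes (7 higher), 0.046 for 10 microglial genes (7 higher), -0.27 for 12 meningeal genes (3 higher), -0.63 for 4 erythrocyte genes (0 higher) and -0.51 for 15 dopamine neuron genes (0 higher). After 2 days in VTA it was -0.16 for astrocyte genes (3 higher), -0.39 for oligodendrocyte genes (0 higher), -0.13 for endothelial genes (2 higher), -0.22 for microglial genes (3 higher), -0.77 for meningeal genes (1 higher), -0.15 for erythrocyte genes (1 higher) and -0.46 for dopamine neuron genes (1 higher). In SN after 2 days it was 0.23 for astrocyte genes (8 higher, 4 of them without overlap), -0.21 for oligodendrocyte genes (2 higher), -0.003 for endothelial genes (5 higher), -0.015 for microglial genes (5 higher), -0.67 for meningeal genes (3 higher), -0.69 for erythrocyte genes (0 higher) and -0.97 for dopamine neuron genes (0 higher). In that comparison 14 of 15 dopamine neuron genes were lower without overlap, where 8.56% of all genes were, and 5.96% of all genes were higher without overlap. After 10 days in VTA the median was -0.019 for astrocyte genes (6 higher), -0.27 for oligodendrocyte genes (1 higher), -0.012 for endothelial genes (5 higher), -0.0059 for microglial genes (5 higher), -0.14 for meningeal genes (3 higher), -0.18 for erythrocyte genes (1 higher) and -0.17 for dopamine neuron genes (1 higher). Between control regions, VTA minus SN, it was 0.19 for astrocyte genes (10 higher), 0.11 for oligodendrocyte genes (8 higher), 0.029 for endothelial genes (6 higher), -0.049 for microglial genes (3 higher), -0.20 for meningeal genes (2 higher), -0.31 for erythrocyte genes (0 higher) and -0.41 for dopamine neuron genes (3 higher). The part of these shifts in the differences of Capsl and Ccdc153 was not tested. In such captured samples, fewer cells of a type and less RNA per cell cannot be told apart.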

How the data were processed

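Expression was measured on 18 single arrays, 3 in each of 6 groups taken from the sample titles. The deposited log2 values of 45101 probe sets were log2 transformed and RMA normalised by the authors in the software GeneSpring GX 10.0, as stated per the labels of the series. Each probe set has a median of 0 (within 5e-07) across arrays, so no level and no filter on dim probe sets were available. Array number limits the precision. Probe sets with 1 symbol in the platform annotation (34958, or 34945 without control probe sets, where 932 had several and 9211 none) were averaged per gene, giving 18193 genes.

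Members, lists and rules were chosen with earlier results of these data known. 148 of 159 genes in 9 lists were measured: other choroid plexus genes, other motile cilia genes, astrocytes, oligodendrocytes, endothelium with pericytes, microglia, meninges with fibroblasts, erythrocytes and dopamine neurons. Named genes were the members, the 4 genes of widest range in a list, the 8 genes most like Ttr or Capsl, Th and Slc6a3, skipping clones and predicted genes. Differences come from limma 3.58.1 in R 4.3.3, in 1 model of 6 group means (12 residual and 4.06 prior degrees of freedom), with two-sided Benjamini-Hochberg adjustment over all genes at 0.05, tested on simulated data first. This test was planned for all members in 3 comparisons, but its p is given only where the comparison that chose a gene held neither group. Within a treatment, deviations from the group mean of SN and VTA arrays with the same number correlated over 0.1 in 7 of 9 pairs. This held for all 3 after 10 days (0.281 to 0.399) but not for all 3 after 2 days (lowest 0.050) or in controls (lowest 0.064). Paired SEs are therefore given only after 10 days. They come from 1 model that paired the arrays of controls and of both treatments, so its estimate of spread draws on all 9 pairs. Alternatives changed the probe set summary, the arrays in the fit, the centring or normalisation, array weights, a replicate block, and left out 1 array at a time. Figures used matplotlib 3.10.9 in Python 3.11.15.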

Additional observations from a re-analysis of the deposited data

How the results depend on the processing

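Under every alternative, Capsl after 2 days in SN did not pass, nor did any of the other 8 genes after 10 days in VTA. Without 1 array at a time, the median member difference ran from 0.17 to 0.77 after 10 days in SN (0.38 with all arrays) and from 0.14 to 0.92 after 2 days in VTA (0.51). With single probe sets in place of gene means it was 0.78 after 10 days in SN, and with array weights 0.22 after 2 days in VTA. Capsl and Ccdc153 kept their sign in all 65 alternatives each. These refits use nearly the same arrays and include the comparisons on which the genes were chosen, so a kept sign is no separate evidence. The other 7 genes took the other sign in 52 of the 625 alternatives run over all members, 14 of them for Kcnj13. By single probe set Kl was at 1.34 or -0.12 after 2 days in VTA, and Ttr between -0.52 and 1.64 after 10 days in VTA. The number of genes called over all genes ranged from 0 to 20 after 2 days in SN (0), 0 to 7 after 10 days in SN (1), 0 to 5 after 2 days in VTA (2) and 0 to 4 after 10 days in VTA (2), so counts of calls are unstable. The cause was not tested.

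With the replicate number as a block, the tested genes did not pass either. The medians were 0.38 after 10 days in SN and 0.51 after 2 days in VTA. Over all groups, same-numbered arrays correlated between -0.260 and 0.399 (median 0.081, 45 pairs). A random block of SN and VTA arrays with the same treatment and number was chosen after seeing the data. With it the tested genes did not pass, and the medians were the same. 3 arrays per group and values centred per probe set limit what can be seen, and no signal over background was available.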
